A study of Homo sapiens with 8 samples.

Results

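The MYC and MAX network was examined in MOLM-13 cells through the 10 genes MYC, MYCN, MYCL, MAX, MXD1, MXD3, MXD4, MXI1, MNT and MLX, which were taken by symbol from a table of 38551 genes. MOLM-13 is a human acute myeloid leukemia cell line in which KMT2A is rearranged. Bulk polyA RNA was sequenced from 4 libraries of cells that received the diluent DMSO and from 4 libraries of cells treated with 100 nM PR-957 (ONX-0914), an inhibitor of the immunoproteasome subunit PSMB8, each for 72 h. All 8 libraries came from this single line, and nothing in the labels says whether replicates were separate cultures, so p-values measure the spread between these libraries, which may be technical.

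MYC, MYCN and MYCL are transcription factors of the basic helix-loop-helix leucine zipper class that bind DNA only when paired with MAX, and these pairs activate genes of growth, ribosome assembly and the cell cycle. MXD1, MXD3, MXD4, MXI1 and MNT compete for MAX, bind the same E-box sequence and recruit the SIN3 corepressor with its histone deacetylases, so that the balance of both kinds of partner sets the output of the network. MLX is a parallel dimerization partner that pairs with MLXIP and MLXIPL in glucose sensing and also with some of the repressors. MYC is a central oncogene of acute myeloid leukemia and is often highly expressed in it.

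Total counts ran from 16675036 to 23111223 per library, with DMSO replicate 4 the deepest. Of the acute myeloid leukemia markers fixed for a check of the line, 11 of 11 were expressed. LYZ, MPO and SPI1 of these were higher under PR-957 (log2 fold changes of 2.42, 1.53 and 0.20) and PTPRC, FLT3, HOXA9 and MEIS1 were lower (-0.66, -0.98, -0.61 and -0.34). Of 10 markers of other cell types, 3 passed the filter on low counts, namely the B cell gene CD79A (7 to 25 counts), the platelet gene GP9 (14 to 32 counts) and the epithelial keratin KRT18 (371 to 774 counts). KRT18 was lower under PR-957 (adjusted p = 0.0394, edgeR), and CD79A and GP9 were not called (adjusted p = 0.306 and 0.190, edgeR). The other markers had at most 12 counts in any library, with CD3E and PF4 at 0 throughout. Mitochondrially encoded transcripts took 1.94% to 2.75% of counts in DMSO and 4.15% to 5.24% in PR-957 libraries, and the part of this shift, or of the marker changes, in the results below was not tested. In bulk RNA, fewer cells of a kind and less RNA per cell cannot be told apart.

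Promoters are shown for the members whose transcripts moved, since network proteins can act on each other's genes through E-boxes. RefSeq (GRCh38.p14) promoter windows were examined for 9 of 10 members, in 12 entries that matched hg38 letter for letter. No window was examined for MYC, so its promoter was not searched. Bases upstream of the annotated start are printed 5′ to 3′ on the gene's strand, cut where the count table's first exon begins, with motif matches in capitals. The MYCN sequence lies at chr2:15940300-15940549 (plus strand), MXI1 at chr10:110207355-110207604 (plus strand, the most upstream of its 3 annotated starts), MXD1 at chr2:69914859-69915040 (plus strand) and MNT at chr17:2401061-2401310 (minus strand).
MYCN: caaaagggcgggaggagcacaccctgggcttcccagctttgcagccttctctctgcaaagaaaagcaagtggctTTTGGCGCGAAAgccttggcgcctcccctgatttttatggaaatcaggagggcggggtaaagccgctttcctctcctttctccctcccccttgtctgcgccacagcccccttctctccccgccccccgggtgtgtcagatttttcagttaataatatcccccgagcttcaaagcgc
MXI1: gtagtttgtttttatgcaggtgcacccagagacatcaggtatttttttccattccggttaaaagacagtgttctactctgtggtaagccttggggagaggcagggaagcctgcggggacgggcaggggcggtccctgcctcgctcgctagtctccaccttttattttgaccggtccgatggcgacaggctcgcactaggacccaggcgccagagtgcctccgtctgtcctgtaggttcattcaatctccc
MXD1: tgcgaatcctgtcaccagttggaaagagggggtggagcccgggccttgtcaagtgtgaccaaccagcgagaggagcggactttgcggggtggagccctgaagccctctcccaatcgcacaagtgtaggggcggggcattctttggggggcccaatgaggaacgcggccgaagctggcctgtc
MNT: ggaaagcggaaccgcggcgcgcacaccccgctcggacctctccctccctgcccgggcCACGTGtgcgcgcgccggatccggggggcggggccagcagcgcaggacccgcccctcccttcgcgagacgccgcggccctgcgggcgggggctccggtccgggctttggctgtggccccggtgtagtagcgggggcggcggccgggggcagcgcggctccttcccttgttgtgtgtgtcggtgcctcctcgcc
The motifs searched, on both strands, were the E-box CACGTG and the E2F-like sequences TTTGGCGC and TTTCGCGC. E-boxes were present in the windows of MNT, MXD4 and MLX and in no other member window examined. Of all 35116 promoter entries, 7.26% held one. The annotated start used for MXD3 lies 854 bases from its nearest counted exon start, so its window may not belong to the transcript counted. The E-boxes of MXD4 and MLX, whose transcripts were not called, are shown for comparison with that of MNT, in 30 bases from chr4:2262330-2262359 (minus strand) and chr17:42567038-42567067 (plus strand).
MXD4: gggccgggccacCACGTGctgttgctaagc
MLX: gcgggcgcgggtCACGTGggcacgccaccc
In MYCN both E2F-like sequences matched, on opposite strands and overlapping by 4 bases, from position -176 to -165 relative to the annotated start. TTTGGCGC was present in 0.652% of all entries, TTTCGCGC in 0.515%, either of them in 1.15%, and both together in 7 entries, which is 0.0199%. Only these E2F-like forms were searched, so the shares do not measure how unusual the MYCN promoter is. A match is a description of these letters and not evidence of a bound factor.

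To compare levels between genes, counts were scaled to library size by TMM as CPM and divided by exon length in kilobases. MYC was by far the most abundant member in DMSO, at 175 ± 14.1 CPM per kb (SD, n = 4), and 97.8% of all genes tested were lower. MLX followed at 30.9 ± 1.58, MXI1 at 25.4 ± 2.64 and MAX at 13.7 ± 0.710 CPM per kb, with no overlap between libraries of neighbouring genes in this order. MXD4, MXD3 and MXD1 came next at 6.95 ± 0.328, 6.34 ± 0.606 and 5.56 ± 0.817 CPM per kb, and each overlapped its neighbour. MNT was at 4.30 ± 0.474, MYCL at 1.51 ± 0.0783 and MYCN at 0.0356 ± 0.0422 CPM per kb. The order of the 10 mean levels was the same under PR-957, where MYC was at 118 ± 3.57 and MXI1 had come close to MAX, with 14.4 ± 0.340 and 14.3 ± 1.56 CPM per kb.

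**Figure D1:**
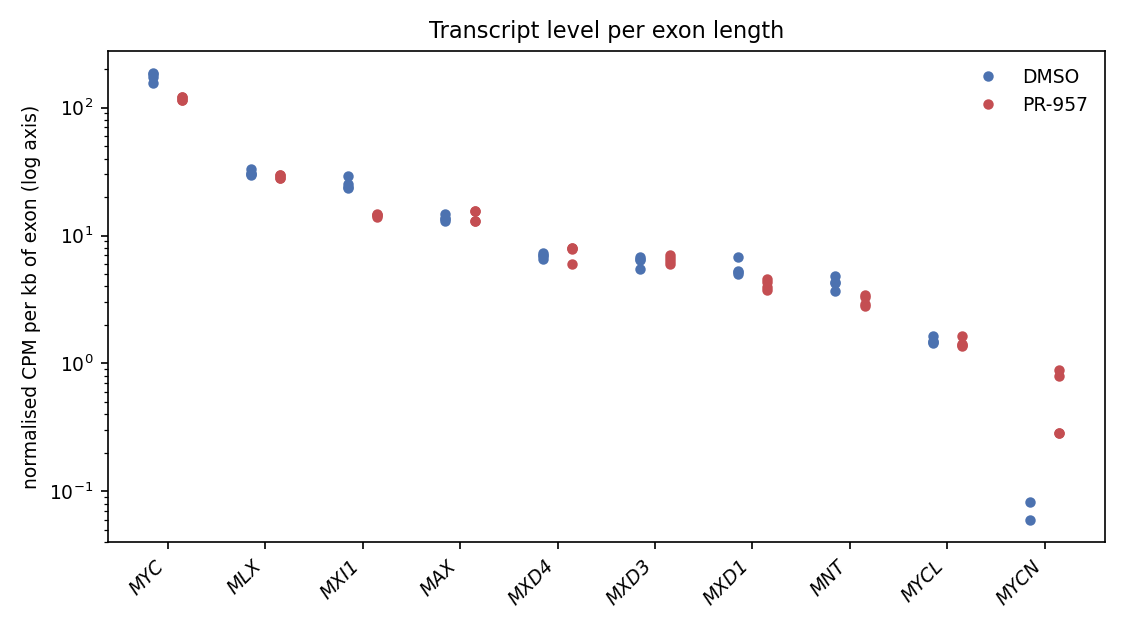
Normalised CPM per kilobase of exon (log axis) of each network member, with a point for each library, DMSO in blue and PR-957 in red. The 2 DMSO libraries with 0 counts of MYCN cannot be drawn on a log axis, and MYC lies at 175 CPM per kb in DMSO against 30.9 for MLX, the next gene.

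Across the network, 5 of 10 members passed an adjusted p under 0.05 in the comparison of PR-957 with DMSO (edgeR quasi-likelihood test, adjusted over all 13179 genes tested), 1 higher and 4 lower. This share was close to that of all genes, of which 46.6% were called, 23.1% higher and 23.5% lower. With library totals alone as scaling, 4066 genes were higher and 2353 lower, against 3045 and 3098, and the calls of the 5 members held. The CPM of the groups did not overlap for the same 5 members, against 42.5% of all genes tested. Only MYCN and MXI1 changed by at least 1.5-fold with an adjusted p under 0.05, as did 13.8% of all genes. MYCN is part of each of these member counts, although it passed the filter on low counts only through its treated libraries. The median log2 fold change (log2FC, PR-957 over DMSO) of the members was -0.08, and that of all genes tested was 0.0030.

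**Figure D2:**
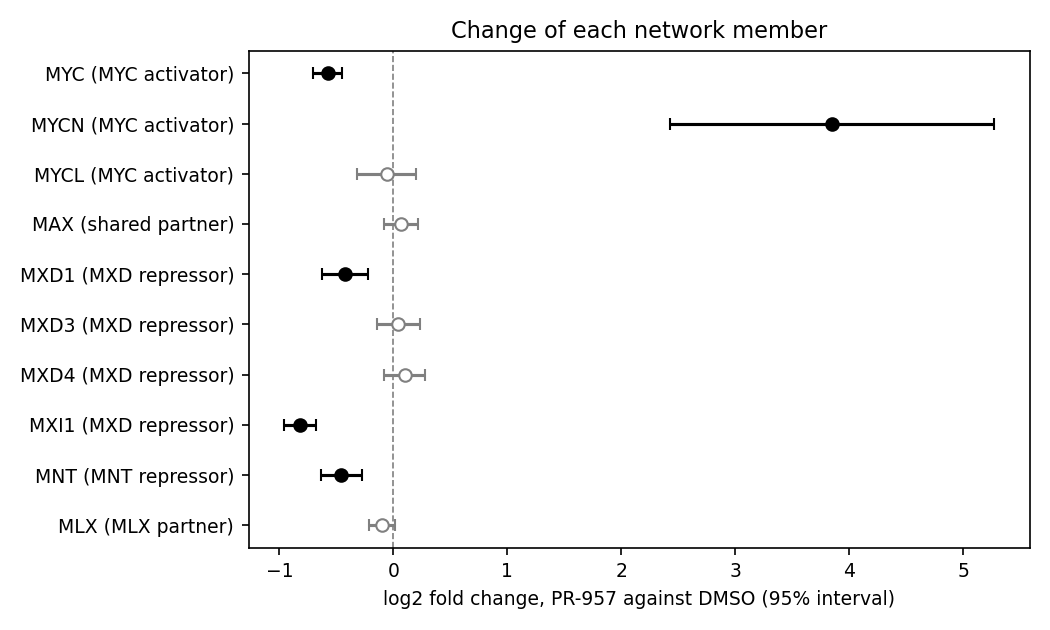
Log2 fold change of each member under PR-957 against DMSO with its 95% interval, where filled points have an adjusted p under 0.05 (edgeR). MXI1, MYC, MNT and MXD1 lie below 0, MYCN lies at 3.85 with an interval from 2.43 to 5.27, and the intervals of MYCL, MAX, MXD3, MXD4 and MLX include 0.

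Among the activators, MYC (chromosome 8, 127735434 to 127742951) fell. DMSO replicates 1 to 4 had 842, 833, 787 and 703 CPM of MYC, and PR-957 replicates 1 to 4 had 545, 546, 519 and 516 CPM. Each treated library was below each control library, and the treated libraries lay closer together than the controls, among which DMSO replicate 4 was the lowest. The mean decreased from 791 ± 63.6 to 531 ± 16.1 CPM with log2FC -0.57 (SE 0.06, adjusted p = 3.37e-07, edgeR). The log2FC was -0.62 among libraries numbered 1 and 2 and -0.53 among libraries numbered 3 and 4.

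MYCN (chromosome 2, 15940550 to 15947004), the paralog best known as an oncogene of neuroblastoma, moved the other way from a very low level. It had 0, 0, 4 and 4 counts in DMSO replicates 1 to 4 and 15, 16, 51 and 46 counts in PR-957 replicates 1 to 4, which corresponded to 0.836, 0.835, 2.33 and 2.59 CPM in the treated libraries. All treated libraries were above all controls, and in both groups replicates 3 and 4 held more counts than replicates 1 and 2. Summed over libraries, 8 counts in DMSO stood against 128 in PR-957, which is 15.3 times as many after TMM scaling of library sizes (exact counting interval at 95%, 7.53 to 36.2).

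The log2FC of MYCN was 3.85 (SE 0.66, adjusted p = 0.000283, edgeR) and the largest fitted increase among all 13179 genes tested. With single libraries left out it ran from 3.46 to 4.45, the highest value being that without DMSO replicate 3. MYCN passed the filter on low counts only through its treated libraries, so a difference was built into its being tested. In replicates 3 and 4 the ratio was 12.1 (interval 5.88 to 28.7). In replicates 1 and 2, where both controls were at 0, the ratio was 9.45 when a group of 0 counts is read as 3 counts. This figure takes the 31 treated counts as they are and leaves out their counting error. MYCNOS, which runs opposite to MYCN and shares 12.4% of its exon bases, had 1 count in all 8 libraries together.

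MYCL (chromosome 1, 39895428 to 39901917), the third activator, was low and did not differ beyond replicate error. DMSO replicates had 7.89, 7.24, 7.18 and 7.03 CPM and PR-957 replicates had 6.63, 6.89, 7.90 and 6.69 CPM, so the groups overlapped. Its log2FC of -0.06 had a 95% interval from -0.32 to 0.20 (adjusted p = 0.724, edgeR), and the sign turned to positive with library totals alone and among libraries numbered 3 and 4. Of the 3 activators summed per exon length, MYC made up 99.1 ± 0.0655% in DMSO and 98.3 ± 0.370% in PR-957 libraries. MYCN accounted for 0.0213 ± 0.0248% and 0.477 ± 0.283%, so that MYC remained nearly the whole of the pool in each group.

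**Figure D3:**
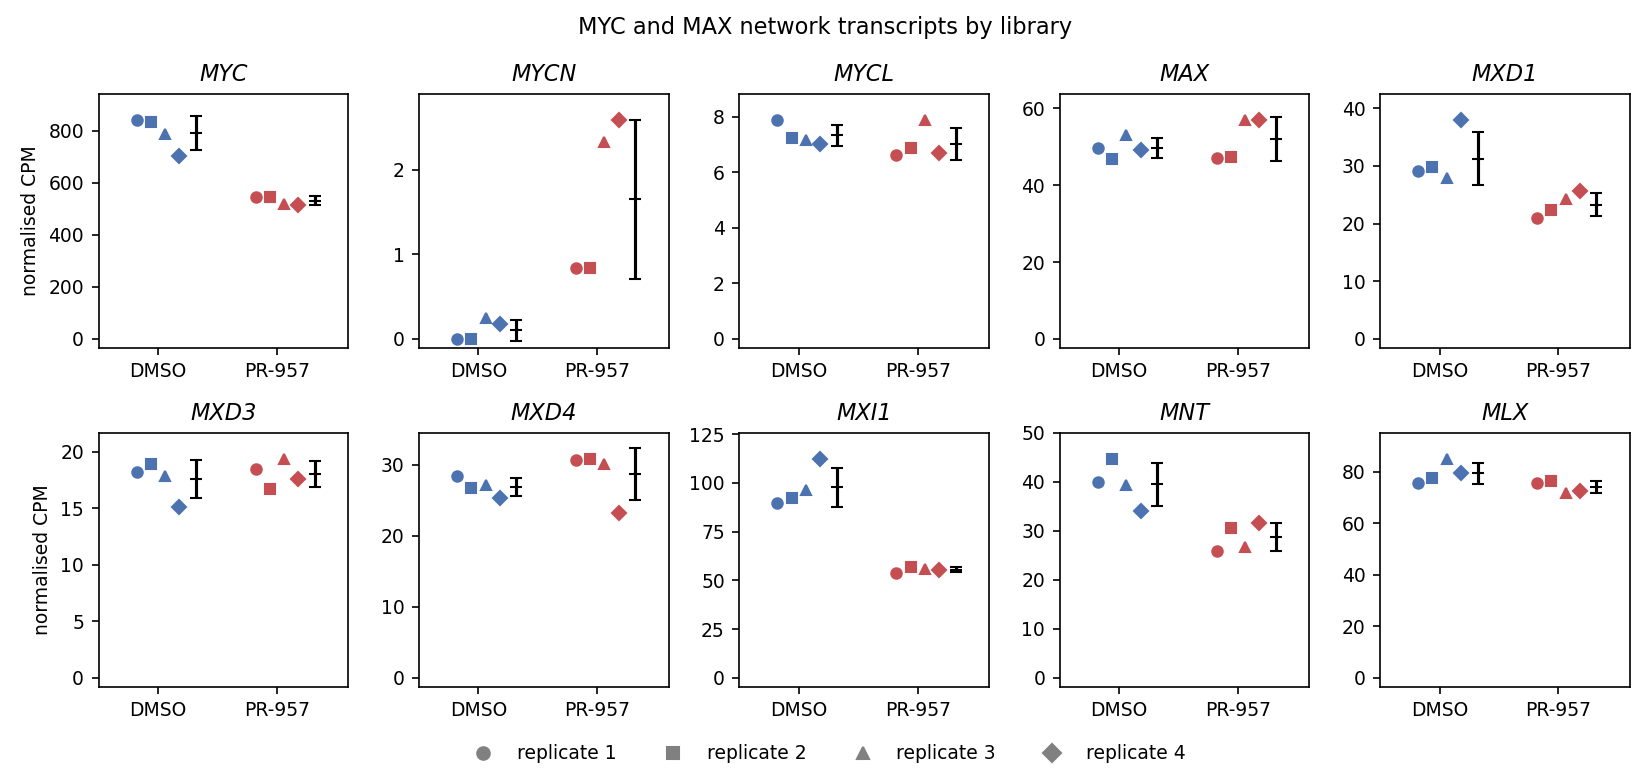
Normalised CPM of the 10 members in each library (marker shape gives the replicate, DMSO blue, PR-957 red) with mean and SD in black. MYC, MXI1, MXD1 and MNT show treated libraries below all controls, MYCN shows the opposite with 0 to 4 counts in controls and 15 to 51 in treated libraries, and the other 5 genes overlap.

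The shared partner MAX (chromosome 14, 65006101 to 65102695) did not pass the test. It had 49.7, 46.9, 53.2 and 49.1 CPM in DMSO replicates 1 to 4 and 47.0, 47.3, 57.0 and 57.0 CPM in PR-957 replicates 1 to 4. Replicates 1 and 2 of the treated group lay within the controls and replicates 3 and 4 above them. The log2FC was 0.07 (95% interval -0.09 to 0.22, adjusted p = 0.472, edgeR), with a sign that turned among libraries numbered 1 and 2 (-0.03). With MYC lower and MAX not called, the ratio of MYC to MAX per exon length was 11.5 to 14.3 in DMSO and 7.30 to 9.35 in PR-957 libraries, without overlap.

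MXI1 (chromosome 10, 110207605 to 110287365), or MAX interactor 1, was the most abundant repressor and showed the largest decrease of the network. DMSO replicates 1 to 4 had 89.8, 92.1, 96.5 and 112 CPM, and PR-957 replicates had 53.9, 57.1, 55.7 and 55.5 CPM. The treated libraries were tightly grouped, and DMSO replicate 4 was the highest control. The mean went from 97.7 ± 10.2 to 55.5 ± 1.31 CPM with log2FC -0.82 (SE 0.07, adjusted p = 1e-08, edgeR), and without DMSO replicate 4 it was -0.74.

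MXD1 (chromosome 2, 69915041 to 69942945), a repressor known to rise as myeloid cells mature, was lower as well. Its libraries had 29.1, 29.8, 28.0 and 38.0 CPM in DMSO and 21.0, 22.3, 24.2 and 25.6 CPM under PR-957. The groups did not overlap, but DMSO replicate 4 stood well above the other controls. The log2FC was -0.43 (SE 0.10, adjusted p = 0.00122, edgeR), and without DMSO replicate 4 it was -0.32 with an adjusted p of 0.00246.

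MNT (chromosome 17, 2384073 to 2401060), the repressor that is present in most cells regardless of cell cycle state, was the third to fall. It had 39.9, 44.7, 39.2 and 34.0 CPM in DMSO replicates 1 to 4 and 25.8, 30.5, 26.8 and 31.7 CPM in PR-957 replicates 1 to 4. Here DMSO replicate 4 was the lowest control and lay closest to the treated libraries. The log2FC was -0.46 (SE 0.09, adjusted p = 0.000254, edgeR), with -0.58 among libraries numbered 1 and 2 and -0.33 among libraries numbered 3 and 4.

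The remaining repressors did not pass the test. MXD3 (chromosome 5, 177305499 to 177311898), the family member linked to S phase, had 15.1 to 18.9 CPM in DMSO and 16.7 to 19.4 CPM in PR-957 libraries, with a log2FC of 0.04 (95% interval -0.14 to 0.23) whose sign turned without DMSO replicate 4 and among libraries numbered 1 and 2. MXD4 (chromosome 4, 2247432 to 2262109) had 28.4, 26.7, 27.2 and 25.3 CPM in DMSO and 30.7, 30.9, 30.1 and 23.2 CPM under PR-957. In the treated group 3 libraries were above all controls and replicate 4 was below them. Its log2FC was 0.10 (95% interval -0.08 to 0.28, adjusted p = 0.375, edgeR).

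MLX (chromosome 17, 42567060 to 42573203) had 75.6 to 84.9 CPM in DMSO and 71.6 to 76.4 CPM in PR-957 libraries, which overlapped. Its log2FC was -0.10 with a 95% interval from -0.22 to 0.02 (adjusted p = 0.155, edgeR). MXD3 and MLX share 26.1% and 30.2% of their exon bases with genes on the opposite strand, PRELID1 and PSMC3IP. Counting used the reverse-strand setting, but the sources used here do not say that the library kit marks strand, and without it reads of these gene pairs cannot be told apart. PRELID1 and PSMC3IP were higher, with log2FC values of 0.31 and 0.40.

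Activators and repressors were then contrasted within each library, as CPM per kb and as a description without a test. The summed level of MXD1, MXD3, MXD4, MXI1 and MNT was 48.6 ± 2.15 CPM per kb in DMSO and 35.7 ± 0.797 under PR-957, a change of -26.6%, while MYC changed by -32.8%. The ratio of MYC to this sum was 3.98, 3.85, 3.64 and 3.01 in DMSO replicates 1 to 4 and 3.43, 3.34, 3.15 and 3.28 in PR-957 replicates 1 to 4. DMSO replicate 4 had the lowest ratio of all and the other controls lay above every treated library, so the groups overlapped. The means were 3.62 ± 0.431 and 3.30 ± 0.118.

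Single pairs gave different pictures. The ratio of MYC to MXI1 was 5.32 to 7.97 in DMSO and 7.92 to 8.60 in PR-957 libraries, and that of MYC to MNT was 37.9 to 42.9 and 33.1 to 42.8, so each pair of ranges overlapped. The composition of the repressor pool differed without overlap for 3 of its genes. MXI1 held 49.9% to 56.5% of the summed repressors in DMSO and 39.7% to 41.5% under PR-957, MXD4 held 12.6% to 15.7% and 17.2% to 22.5%, and MXD3 held 10.6% to 14.3% and 16.7% to 19.2%. The shares of MXD1 and MNT overlapped between groups. The CPM of MXD4 and MXD3 overlapped too and neither was called (log2FC 0.10 and 0.04), so their larger shares go with the lower sum.

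**Figure D4:**
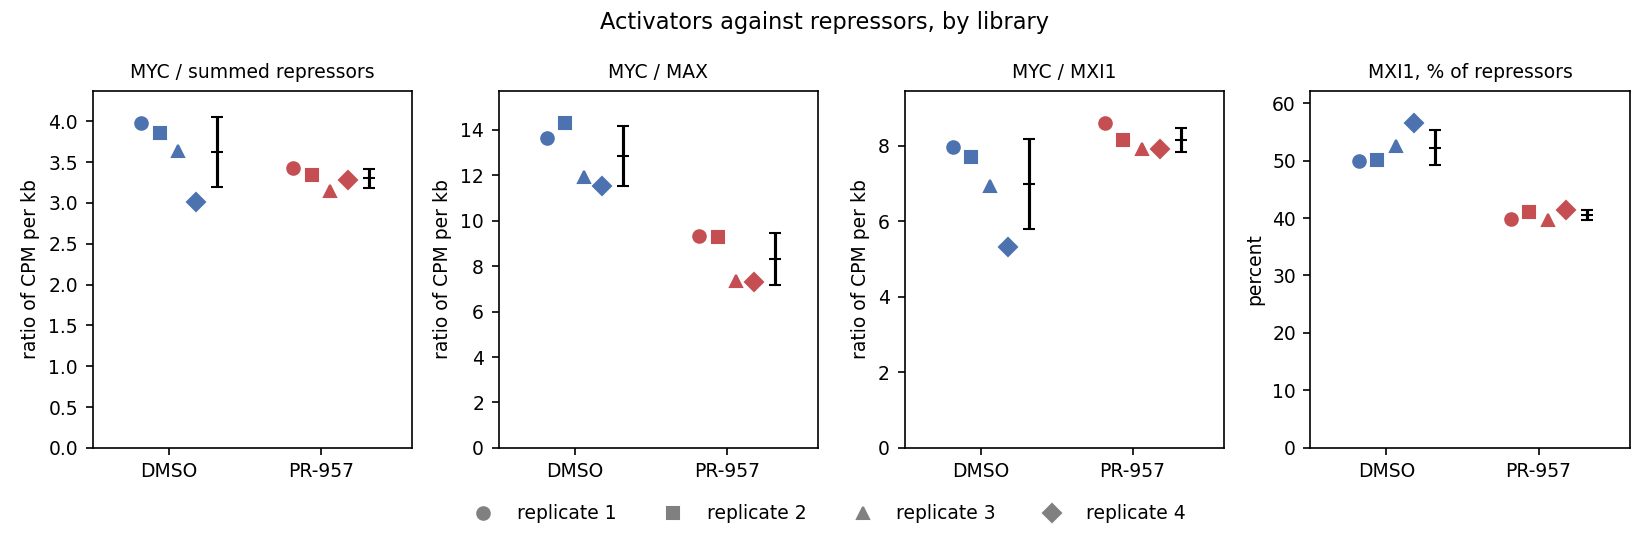
Ratio of MYC to the summed repressors, to MAX and to MXI1, and the share of MXI1 in the summed repressors, from CPM per kb in each library (marker shape gives the replicate, DMSO blue, PR-957 red), with mean and SD in black. The ratio to the repressors overlaps between groups, at 3.01 to 3.98 in DMSO and 3.15 to 3.43 under PR-957, while the ratio to MAX and the share of MXI1 do not.

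Genes whose libraries followed MYC most closely were looked for among 8816 genes with a mean of at least 10 CPM. RBMX, ECI1 and NOB1 had the highest Pearson's r with MYC over the 8 libraries in log2 CPM, with 0.998, 0.996 and 0.995 and log2FC values of -0.60, -0.71 and -0.75. These values mostly reflect the difference between the groups and are given as a description. Among members, MNT and MXI1 had r of 0.91 and 0.89 and MYCN of -0.95.

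The wider pathway was described next. Of the other MAX and MLX partners, MGA, a MAX-bound repressor, had a log2FC of -0.11 (adjusted p = 0.109, edgeR) and MLXIP, the glucose-sensing partner of MLX also called MondoA, of 0.14 (adjusted p = 0.117, edgeR). MLXIPL had at most 8 counts in a library and was not tested. The count of calls was 0 with edgeR, DESeq2 and limma-voom and at an unadjusted p under 0.05, and 1 with PR-957 replicate 2 left out or with library totals alone. Of the targets of MLX dimers, 1 of 3 tested was higher and 2 were lower, against 23.1% and 23.5% of all genes, with a median log2FC of -1.06. TXNIP, a thioredoxin inhibitor and brake on glucose uptake, fell from 337 ± 62.4 to 126 ± 9.19 CPM with log2FC -1.43 (SE 0.12, adjusted p = 1.34e-05, edgeR). Its relative ARRDC4 fell by 1.06 on the log2 scale, and the glycolytic regulator PFKFB3 rose with a log2FC of 0.22. PKLR had 0 counts in all libraries and is placed by the table on a second contig as well, so its level is unknown.

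Subunits of the SIN3 corepressor were mostly not called, with 2 of 12 higher and 1 lower (16.7% and 8.33%, against 23.1% and 23.5% of all genes) and a median log2FC of 0.02. The histone chaperone RBBP7 had a log2FC of 0.53, BRMS1 of 0.47 and the deacetylase HDAC2 of -0.17, all with an adjusted p under 0.05, and SAP18 of -0.12 (adjusted p = 0.109, edgeR). Among proteins that act with MYC at its target genes, most of them coactivators, 3 of 11 were higher and 0 lower. This held with edgeR, DESeq2 and limma-voom, and the counts were 4 and 0 at an unadjusted p under 0.05 (edgeR). The median was 0.12, where 23.1% and 23.5% of all genes were called. The 3 higher genes were DMAP1 and KAT2A of histone acetyltransferase complexes and the MYC-binding host cell factor HCFC1. Their log2FC values were 0.40, 0.24 and 0.32, while WDR5 had 0.13 (adjusted p = 0.062, edgeR). With library totals alone 8 of these 11 genes were called, and without DMSO replicate 3 it was 5, all higher. SIN3 calls with library totals alone were 5, all higher, so HDAC2 was then not called lower.

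Among genes that act on MYC protein, 6 of 14 were higher and 3 lower, which is 42.9% and 21.4% against 23.1% and 23.5% of all genes, with a median log2FC of 0.01. The ubiquitin ligase subunit SKP2, the phosphatase inhibitor CIP2A, the chaperone-linked ligase STUB1 and the kinase AURKA, which shields MYC proteins from degradation, had log2FC values of 0.39, 0.37, 0.34 and 0.31. The lower genes, named after their values were seen, were FBXW7 and HUWE1, ligases that target MYC, and SET, a phosphatase inhibitor, with -0.23, -0.25 and -0.23. Among libraries numbered 3 and 4, 5 genes of this list were called. Among factors that act at the MYC gene, 4 of 9 were lower and 0 higher with edgeR, DESeq2 and limma-voom and at an unadjusted p under 0.05, but 1 lower and 2 higher with library totals alone, and the median was -0.07. Of all genes, 23.5% were lower and 23.1% higher. CDK8, CDK9 and MYB were among the lower genes, with log2FC values of -0.26, -0.16 and -0.16. CDK7 was not tested, with 4 to 12 counts, and has a second placement in the table. This count was 2 when DMSO replicate 1, 2 or 3, or else PR-957 replicate 1, was omitted, 1 without PR-957 replicate 3 and 0 among libraries numbered 3 and 4.

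Of 68 tested genes that MYC is known to activate, 22 were higher and 11 lower, which is 32.4% and 16.2%, against 23.1% and 23.5% of all genes. The total of 48.5% called was close to the 46.6% of all genes, and the median log2FC was 0.06. With library totals alone, 34 were higher and 8 lower, but without DMSO replicate 4 the counts were 21 and 18. Among libraries numbered 1 and 2 they were 20 and 15, and among libraries numbered 3 and 4 they were 22 and 7. SHMT2, the mitochondrial serine hydroxymethyltransferase, fell from 931 ± 50.4 to 456 ± 30.8 CPM with log2FC -1.03 (SE 0.06, adjusted p = 1.18e-10, edgeR). The G1 cyclin CCND2 fell by 0.69 on the log2 scale. In the other direction, the mitochondrial cochaperonin HSPE1 rose from 76.3 ± 7.04 to 155 ± 5.25 CPM with log2FC 1.02, and the transferrin receptor TFRC rose with a log2FC of 0.89. E2F2, EIF4A1 and IPO4 were not tested, and of these EIF4A1 and IPO4 had 0 counts throughout, so their levels are unknown. FBL and BOP1, named after their values were seen, were tested and not called, and are also placed on another contig. Their counts may therefore fall short of their levels, and FBL had only 2.19 CPM in DMSO.

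Genes that MYC is known to repress were lower in 6 of 9 tested and higher in 1, which is 66.7% and 11.1% against 23.5% and 23.1% of all genes, with a median log2FC of -0.42 against 0.0030. The CDK inhibitors CDKN1B, CDKN1A and CDKN2C had log2FC values of -0.54, -0.42 and -0.29, and the stress gene GADD45B of -0.43. NDRG2, named after its value was seen, was the gene that was higher, with a log2FC of 0.55. Among libraries numbered 3 and 4, 4 genes of the list were lower and 0 higher. All these lists were counted without a set test.

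**Figure D5:**
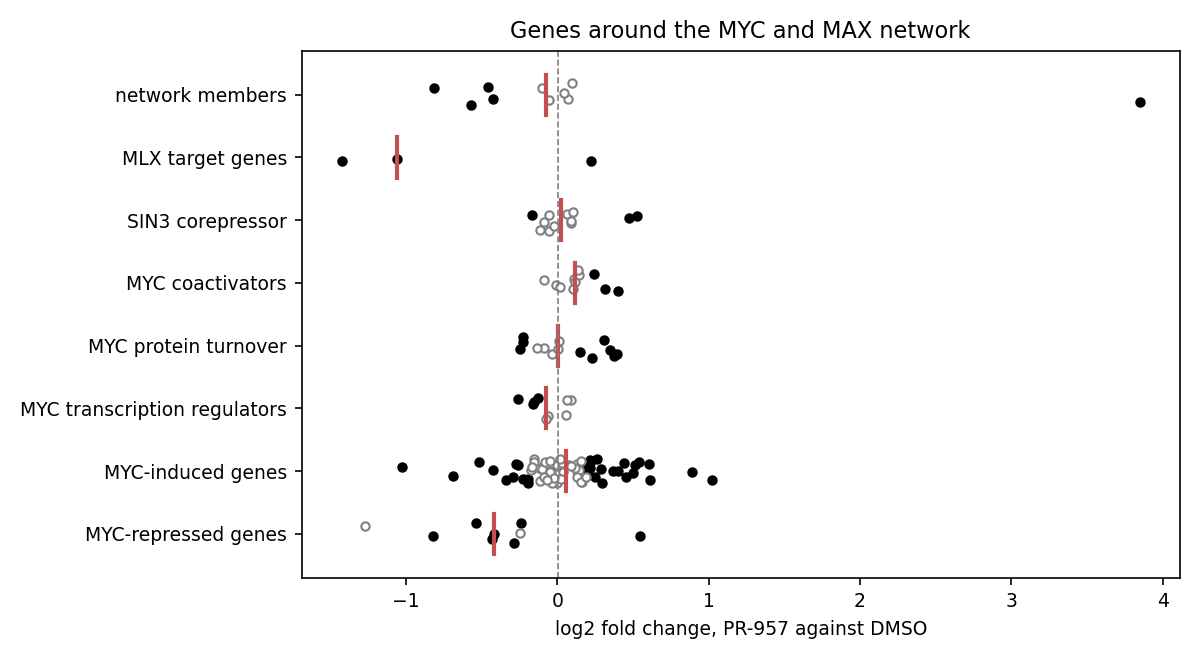
Log2 fold change of each tested gene in the network and in the surrounding lists (filled points have an adjusted p under 0.05 with edgeR, red bars are list medians, the dashed line is the median of all genes tested). MYCN stands alone at 3.85, MYC-induced genes spread from -1.03 to 1.02, and MYC-repressed genes lie mostly below 0 with a median of -0.42.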

How the data were processed

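PolyA RNA of MOLM-13 cells was sequenced from TruSeq libraries. The table deposited by the authors holds whole-number counts of fragments by gene, made with featureCounts 2.0.1 (reverse-strand, paired) on NCBI RefSeq hg38 exons after Trimmomatic 0.39 and STAR 2.7.10a, as the submitters' processing notes and the file header name them. The header named 16 libraries, of which 8 were held here, and 0 columns were left unmapped. A second deposited table of the authors' DESeq2 comparison (mean, fold change, error and p-value) was not used. Of 38557 gene rows, 6 held no values.

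Counts were filtered by expression (13179 genes, 99.9% of counts), scaled by TMM and tested with edgeR 4.0.16 (robust quasi-likelihood, two-sided, Benjamini-Hochberg over all genes tested) in R 4.3.3. Errors were derived from the F statistic. Counting intervals and the floor of 3 counts, which is 0.130 to 0.180 CPM per library, cover counting error only. Alternatives used DESeq2 1.42.0, limma-voom 3.58.1, other scalings and filters, a replicate block, a batch term, replicate pairs and omission of each library. The fitting code was tested on simulated data.

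Members and gene lists were chosen with earlier results of these data known. All 10 members were named, with up to 4 genes of lowest adjusted p from each further list (every gene where a list held 4 or fewer) and the 3 genes most like MYC. Cell type markers were named outside this rule, after their values were seen, where a myeloid marker was called or another marker was tested or at 0, and other genes so named are marked in the text. No 2 libraries agreed within sampling noise (lowest chi-square per gene 3.18, DMSO replicates 1 and 3). Some genes of the lists are not reported here.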

Additional observations from a re-analysis of the deposited data

Results flagged for a closer look

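MXD4 in PR-957 replicate 4 stood apart from the other treated libraries, at 23.2 CPM against 30.1 to 30.9 CPM. Its gap to the nearest of them was 0.907 of the range of the group, above Dixon's critical value of 0.829 for 4 samples. Of 20 groups examined (10 members in 2 treatments) this was the only one past that value, and chance gives about 1 in 20. Without this library the log2 fold change of MXD4 was 0.18 (adjusted p = 0.0536, edgeR), against 0.10 with it.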

How the results depend on the processing

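MYC, MXD1, MXI1 and MNT passed the threshold in the same direction in 19 of 19 alternatives. MYCN did so in 18 of 18, as a minimum of 1 CPM in 4 libraries removed it. In fits filtered on low counts, a difference was again built into MYCN being tested. Signs turned for members that were not called. MYCL was 0.0205 with library totals alone and 0.0371 in replicates 3 and 4 only, MAX -0.0342 and MXD3 -0.0818 in replicates 1 and 2 only, and MXD3 ran from -0.0267 to 0.0829 with single libraries left out. With library totals alone the calls were 1 for MAX and MLX partners, 5 for SIN3 and 8 for coactivators, against 0, 3 and 3. In replicates 3 and 4 only they were 5 for turnover, 0 for transcription regulators (edgeR) and 4 for MYC-repressed genes, against 9, 4 and 7. With single libraries left out, calls ran from 0 to 1 for partners, 3 to 5 for coactivators and 1 to 4 for transcription regulators. The causes were not tested.

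To look for pairing, the mean of the group was subtracted from each gene's log2 CPM. These deviations were then correlated between DMSO and PR-957 libraries over the genes tested. Same-numbered libraries correlated at 0.0985 to 0.213, and for PR-957 replicates 1, 2 and 4 this was the highest value. PR-957 replicate 3 correlated best with DMSO replicate 4, at 0.105. Other pairs within replicates 1 and 2, or within replicates 3 and 4, reached up to 0.114. Pairs across these sets all lay below 0, from -0.187 to -0.0411. Subtracting group means makes positive values for some pairs come with negative values for others, so these signs are partly forced. The labels do not say that numbers pair the samples, and the main fit held no term for the numbers or for these sets. With the replicate block 6913 genes were called against 6143, and with a term for these sets 6668. The replicate block called 1 partner and 5 coactivators, and no call of a member changed with either term. At 4 libraries a group, depth limits mainly MYCN, with 0 to 4 counts in controls.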
